A study of Mus musculus with 12 samples.

Results

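The 10 genes that follow separated Fyn-null mice from control mice after ethanol in medial prefrontal cortex (PFC), and were followed through all arrays. The genes were Gdpd3, Cdhr1, Krt12, Ccl27a, Pla2g4e, Rpgrip1, Ang, Tmem87a, Pyroxd2 and Cdh7, 10 of the 12323 genes measured. They were selected on the difference of their log2 values between Fyn-null ethanol and control ethanol mice, which was wide for each, so that difference is given below as a description, and counts of members called for it follow from the choice. Every probe set with only a member's symbol in the platform annotation was included, which gave 20 probe sets, of which 14 passed a filter that left out the 45% of probe sets with the lowest mean. Where a gene had several probe sets, the brightest over all arrays represented it. A further 2 probe sets that list Ccl27a together with other genes were left out.

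The animals were male mice, 12 weeks old when obtained, and were killed 4 h after 1 injection. They were habituated beforehand to the facility for 1 week and to saline injections. Fyn-null mice of the stock B6;129S7-Fyntm1Sor/J received ethanol at 3 g/kg or saline, and control mice of the stock B6129SF2/J received the same. By their names both stocks have a mixed strain background. The null allele is constitutive, and because the controls were a separate stock and not littermates, an effect of Fyn and a difference between the stocks cannot be told apart. Each group had 3 Affymetrix whole-genome arrays, and the RNA on an array came from a pool of 3 mice. The values are log2 expression values made by robust multi-array average (RMA), and 1 unit is a doubling on the array's scale. In pooled tissue, fewer cells of a type and less RNA per cell cannot be told apart.

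Most of these genes are better known from other tissues than from frontal cortex. Cdhr1 is a cadherin of photoreceptor discs, Rpgrip1 anchors a regulator of the photoreceptor cilium, and Krt12 is the keratin of the corneal epithelium. Gdpd3 and Pla2g4e act on phospholipids: Gdpd3 releases lysophosphatidic acid, and Pla2g4e transfers an acyl chain to make the precursors of N-acylethanolamines, the lipid family of anandamide.

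Fyn was lower in Fyn-null ethanol pools, at 9.01, 8.75 and 8.77, than in control ethanol pools, at 9.70, 9.45 and 9.33, at its probe set with the higher mean. After saline it was 8.89, 8.64 and 9.45 in the pools labelled Fyn-null replicates 2, 3 and 4, and 9.31, 8.74 and 9.65 in those labelled control replicates 1, 2 and 3. Under its Fyn-null label, saline replicate 4 thus had a control-like value, while saline replicate 2 of the control label had a Fyn-null-like one. Its other probe set lay between 7.50 and 7.95 in every array. The labels were kept as given throughout, and each saline pool is therefore shown separately. Array medians lay between 5.40 and 5.48, and correlations between arrays between 0.982 and 0.997.

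The promoters are shown for 6 members, the 4 with the widest separation after ethanol (Gdpd3, Cdhr1, Krt12 and Rpgrip1) and the pair that lie close together on chromosome 2 (Pla2g4e and Tmem87a). The sequences are RefSeq's for GRCm38.p6, a C57BL/6J reference and not the mice's own DNA, and run 5′ to 3′ along the gene from 250 bases before to 50 bases after the start. Capitals mark the motifs found when both strands were searched. The TATA box was taken as TATAAA and the CCAAT box by its name. The GC box was taken as GGGCGG. The ETS core was taken as CCGGAAG. The E box CACGTG was searched as well and was in no member's promoter. The same held for the cyclic AMP element TGACGTCA.
Gdpd3, chr7:126766164-126766463, plus strand: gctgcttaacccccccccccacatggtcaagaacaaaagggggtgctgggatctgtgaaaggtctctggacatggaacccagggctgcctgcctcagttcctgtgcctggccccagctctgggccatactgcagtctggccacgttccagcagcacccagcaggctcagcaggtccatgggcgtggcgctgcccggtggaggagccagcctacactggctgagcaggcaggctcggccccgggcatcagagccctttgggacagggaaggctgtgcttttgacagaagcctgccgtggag
Cdhr1, chr14:37098298-37098597, minus strand: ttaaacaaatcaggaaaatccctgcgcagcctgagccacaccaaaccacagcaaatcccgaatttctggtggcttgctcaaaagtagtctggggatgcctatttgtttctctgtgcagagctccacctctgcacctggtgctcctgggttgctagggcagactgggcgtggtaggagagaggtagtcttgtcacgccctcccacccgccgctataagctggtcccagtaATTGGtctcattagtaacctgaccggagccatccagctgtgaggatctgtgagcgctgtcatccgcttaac
Krt12, chr11:99422210-99422509, minus strand: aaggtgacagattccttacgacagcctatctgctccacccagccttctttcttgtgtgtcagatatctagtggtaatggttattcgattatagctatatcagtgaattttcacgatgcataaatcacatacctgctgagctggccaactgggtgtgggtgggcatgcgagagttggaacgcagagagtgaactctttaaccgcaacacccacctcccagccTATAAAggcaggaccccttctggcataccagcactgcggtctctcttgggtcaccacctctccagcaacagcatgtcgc
Rpgrip1, chr14:52110653-52110952, plus strand: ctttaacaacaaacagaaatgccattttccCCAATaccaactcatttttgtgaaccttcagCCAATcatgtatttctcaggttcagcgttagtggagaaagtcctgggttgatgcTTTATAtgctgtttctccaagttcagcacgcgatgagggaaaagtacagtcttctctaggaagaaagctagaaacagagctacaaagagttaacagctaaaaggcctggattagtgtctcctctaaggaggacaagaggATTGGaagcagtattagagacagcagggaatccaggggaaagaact
Pla2g4e, chr2:120245286-120245585, minus strand: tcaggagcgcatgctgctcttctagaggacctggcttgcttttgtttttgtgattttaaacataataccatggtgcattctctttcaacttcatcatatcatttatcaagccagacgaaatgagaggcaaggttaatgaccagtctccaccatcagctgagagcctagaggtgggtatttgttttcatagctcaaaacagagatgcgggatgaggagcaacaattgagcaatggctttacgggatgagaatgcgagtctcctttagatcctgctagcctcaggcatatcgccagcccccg
Tmem87a, chr2:120404067-120404366, minus strand: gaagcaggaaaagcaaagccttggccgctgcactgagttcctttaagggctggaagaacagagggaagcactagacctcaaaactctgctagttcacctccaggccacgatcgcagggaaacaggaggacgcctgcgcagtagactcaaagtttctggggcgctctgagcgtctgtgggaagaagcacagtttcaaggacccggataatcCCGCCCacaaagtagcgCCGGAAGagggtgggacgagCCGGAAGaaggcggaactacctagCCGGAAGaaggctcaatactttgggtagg

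The Tmem87a window held a GC box and 3 ETS cores, the Krt12 window a TATA box, the Cdhr1 window a CCAAT box on the opposite strand, and the Rpgrip1 window a TATA box on the opposite strand and 3 CCAAT motifs. The Gdpd3 and Pla2g4e windows held none of them, so the pair on chromosome 2 did not share a motif of this list. Over all 32851 promoters of the table, 13.6% held the TATA box, 37.4% the CCAAT box, 35.7% the GC box and 8.86% the ETS core. No 2 of the marked motifs overlapped in the windows shown. A match is a run of letters and not a site shown to be used.

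In Fyn-null mice after ethanol, 4 genes were lower and 6 were higher. For each of the 10, the ethanol pools of the stocks did not overlap, which is what they were chosen for (20.9% of all genes had non-overlapping ethanol groups, 4.94% lower and 16% higher in Fyn-null mice). In size of difference they ranked between 2nd (Gdpd3) and 59th (Pla2g4e) of the 12323 genes. The choice had no stated threshold: Pla2g4e at 0.76 was a member, while Gabra2 at -0.76 ranked just above it and Camk2a at -0.76 just below it, and neither was one. The lower group lay below 5.15, the lowest mean the filter kept, in all 3 Fyn-null ethanol pools at Gdpd3 and Cdhr1, in all 3 control ethanol pools at Pyroxd2 and in 2 of them at Ang. These probe sets passed the filter through the pools where they were high, and no fold is given for them, since values this low may lie near the background of the array.

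**Figure D1:**
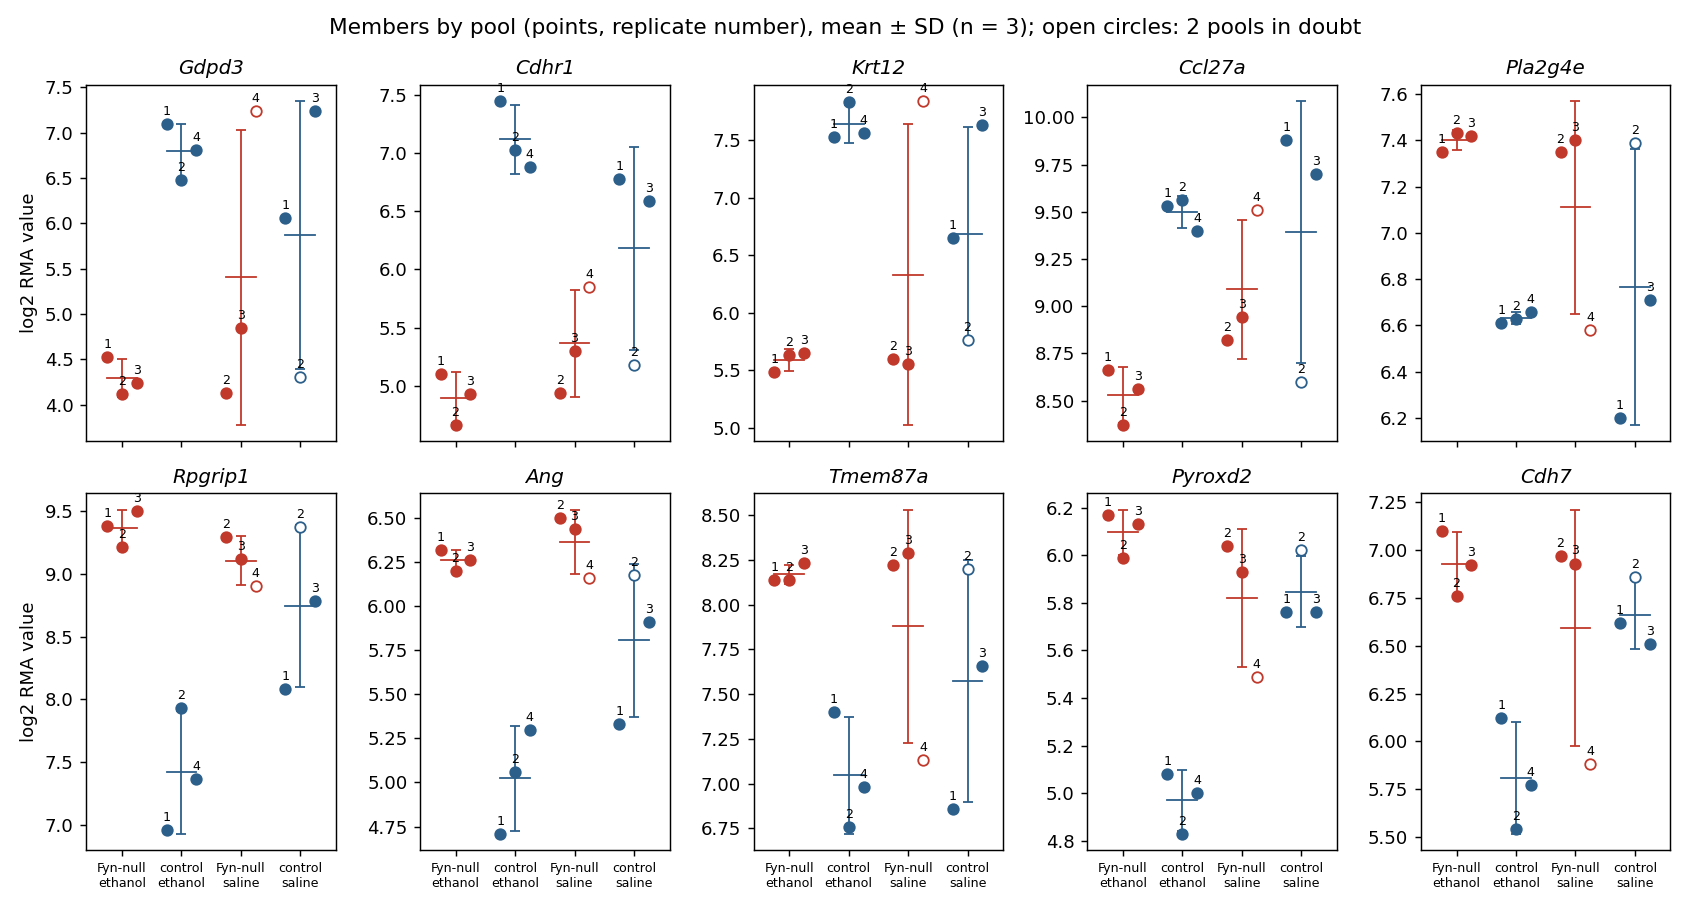
Log2 RMA value (vertical axis, scaled per gene) of the 10 genes in each pool, with groups along the horizontal axis. Points are pools with their replicate number, bars are mean ± SD of 3 pools, red is Fyn-null, blue is control, and open circles are the pools labelled Fyn-null saline replicate 4 and control saline replicate 2. The ethanol groups stand apart for every gene, while the saline groups overlap for every gene.

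Gdpd3, the lysophospholipase D, had the widest separation of the members. It was 4.52, 4.12 and 4.24 in Fyn-null ethanol pools, against 7.09, 6.48 and 6.81 in control ethanol pools, a mean difference of -2.50. After saline it was 4.13, 4.84 and 7.24 in the pools labelled Fyn-null replicates 2, 3 and 4, against 6.06, 4.30 and 7.24 in control replicates 1, 2 and 3. The highest saline values thus came from 1 pool of each label, and both labelled groups covered nearly the whole range of the gene.

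Cdhr1, the photoreceptor cadherin, was 5.10, 4.66 and 4.93 in Fyn-null ethanol pools and 7.45, 7.03 and 6.88 in control ethanol pools (-2.22). Saline pools labelled Fyn-null were at 4.94, 5.30 and 5.85 and those labelled control at 6.78, 5.18 and 6.59. Here replicate 4 of the Fyn-null saline group lay below control replicates 1 and 3, but above the 2 other pools of its label. Olfactory bulb projection neurons, which border the frontal cortex in dissection and are rich in Cdhr1, had 2 of their 5 markers measured. The mean of those markers was 6.03 to 6.20 in Fyn-null and 5.90 to 6.05 in control ethanol pools and overlapped between the groups, and its part in the Cdhr1 values was not tested.

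Krt12 has a pair of probe sets and both gave the same picture. At the brighter one it was 5.48, 5.63 and 5.65 in Fyn-null ethanol pools against 7.53, 7.83 and 7.56 in control ethanol pools (-2.05, 4.14-fold). In saline pools it was 5.60, 5.55 and 7.84 in Fyn-null replicates 2, 3 and 4, against 6.65, 5.76 and 7.63 in control replicates 1, 2 and 3. The dimmer one was 5.56, 5.24 and 4.98 in Fyn-null and 7.07, 7.62 and 7.19 in control ethanol pools. Control saline replicate 1 lay about midway between the stocks at Krt12. Only 3 of 6 surface epithelium markers were measured, and their mean was 6.05 to 6.21 in Fyn-null and 6.05 to 6.11 in control ethanol pools.

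Ccl27a, a skin chemokine and ligand of the receptor Ccr10, was 8.66, 8.37 and 8.56 in Fyn-null ethanol pools, against 9.53, 9.56 and 9.40 in control ethanol pools (-0.97, 1.96-fold). In the saline pools it was 8.82, 8.94 and 9.51 under the Fyn-null label and 9.88, 8.60 and 9.70 under the control label. Its probe set is of a type that can cross-hybridise, and near-identical copies of this chemokine are annotated in the mouse genome, so the share of the signal that came from Ccl27a itself is uncertain.

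Among the higher genes, Rpgrip1 showed the widest difference. Its bright probe set was 9.38, 9.21 and 9.50 in Fyn-null ethanol pools, against 6.96, 7.93 and 7.37 in control ethanol pools (1.94, 3.84-fold). With saline it was 9.29, 9.12 and 8.90 in pools labelled Fyn-null and 8.08, 9.37 and 8.78 in pools labelled control. The control pools were thus spread over a wide range after either injection, and Fyn-null pools were not. Of 6 photoreceptor markers only Sag was measured, at 5.40 to 5.69 in Fyn-null and 5.15 to 5.31 in control ethanol pools, and at 5.59 to 5.65 against 5.38 to 5.51 after saline.

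Ang, or angiogenin, a secreted ribonuclease that cleaves transfer RNA, was 6.32, 6.20 and 6.26 in Fyn-null ethanol pools and 4.71, 5.06 and 5.30 in control ethanol pools (1.23). Saline pools were at 6.50, 6.44 and 6.16 under the Fyn-null label and 5.33, 6.18 and 5.91 under the control label. Another probe set that fell below the filter gave the same difference, 1.24, with 4.38, 4.21 and 4.23 against 2.75, 3.19 and 3.16. It is of the same type as that of Ccl27a, which can cross-hybridise. Whether the brighter probe set reads Ang alone was not examined either. The remaining probe set of Ang, also below the filter, was at only 0.13, with values of 2.69 to 3.06 in all arrays. Ang shares its locus with Rnase4, so signal from their shared part cannot be assigned. Rnase4 itself was at -0.27 and ran the other way.

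Pla2g4e had the least spread within the ethanol groups. It was 7.35, 7.43 and 7.42 in Fyn-null ethanol pools, against 6.61, 6.63 and 6.66 in control ethanol pools (0.76, 1.70-fold). Its saline values were 7.35, 7.40 and 6.58 under the Fyn-null label and 6.20, 7.39 and 6.71 under the control label. Tmem87a, a membrane protein of the Golgi, was 8.14, 8.14 and 8.23 in Fyn-null and 7.40, 6.76 and 6.98 in control ethanol pools (1.13, 2.18-fold). Its saline values were 8.22, 8.29 and 7.13 under the Fyn-null label and 6.86, 8.20 and 7.66 under the control label. The pair split the saline pools alike, except that control replicate 3 was near the control mean at Pla2g4e and about midway at Tmem87a.

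Pyroxd2, named for its predicted oxidoreductase domain, was 6.17, 5.99 and 6.13 in Fyn-null ethanol pools and 5.08, 4.83 and 5.00 in control ethanol pools (1.12). Saline values were 6.04, 5.93 and 5.49 under the Fyn-null label and 5.76, 6.02 and 5.76 under the control label. Cdh7, an adhesion molecule of the type II cadherins, was 7.10, 6.76 and 6.92 in Fyn-null and 6.12, 5.54 and 5.77 in control ethanol pools (1.11, 2.17-fold). Its saline values were 6.97, 6.93 and 5.88 under the Fyn-null label and 6.62, 6.86 and 6.51 under the control label. For both genes the 3 saline pools labelled control lay above all control ethanol pools, and the lowest saline value was that of Fyn-null replicate 4.

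Probe sets of one gene did not all separate the stocks. After ethanol, 12 of the 14 member probe sets that passed the filter had non-overlapping groups (20.3% of all probe sets did), and 16 of the 20 in all. Cdh7 had 1 bright probe set at 1.11, another at 0.59 and one at 0.06. Pyroxd2 had one at 1.12 and another at -0.08, with values of 5.36 to 5.77 in all arrays. A further one of Pyroxd2, below the filter, was at 0.45 without overlap. The other 3 probe sets of Rpgrip1 lay between 2.41 and 3.88 in every array, below the filter, and none followed the bright one. Of these, 1 is among the 16 without overlap but ran the opposite way, at -0.19. Which stretch of each transcript these probe sets read, and whether they read other genes too, was not examined.

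**Figure D2:**
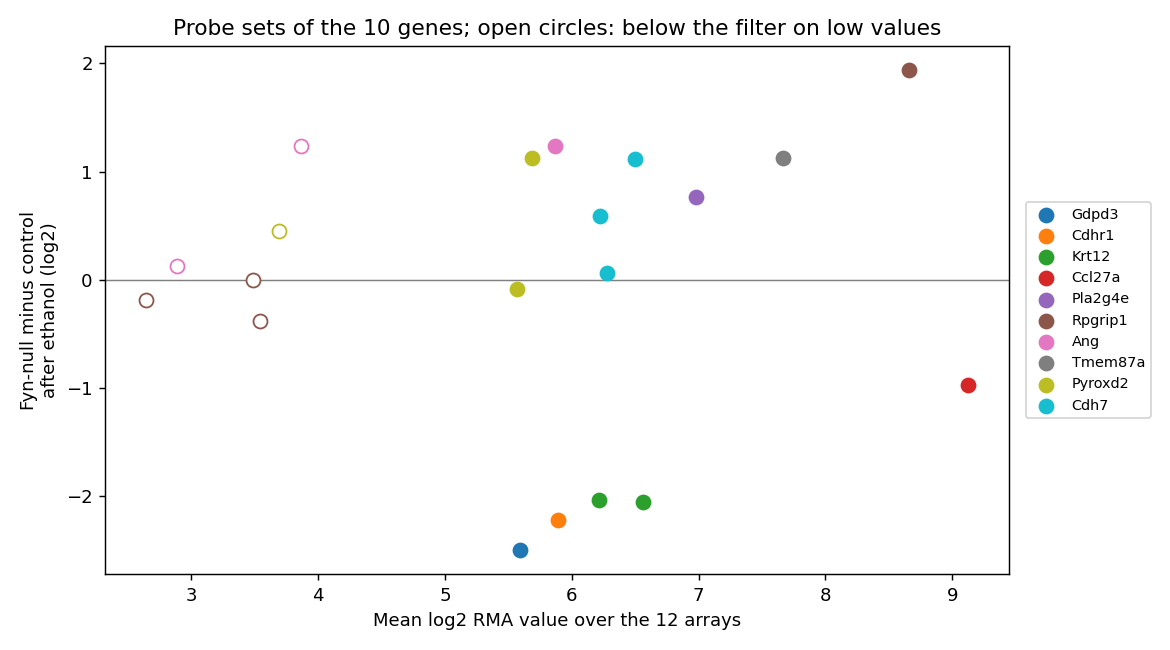
Difference between Fyn-null and control ethanol pools (vertical axis, log2) for all 20 probe sets against their mean over 12 arrays (horizontal axis, log2 RMA). Each colour is a gene and open circles are probe sets below the filter on low values. Krt12 has 2 probe sets at about -2, while Cdh7 runs between 0.06 and 1.11 and Pyroxd2 between -0.08 and 1.12.

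Each saline pool was then placed between the means of the ethanol groups, with 0% at the control ethanol mean and 100% at the Fyn-null ethanol mean, to ask whether the pools followed their labels. Fyn-null saline replicates 2 and 3 were nearer to the Fyn-null mean at 10 of 10 genes, at 69.2% to 120% and 57.7% to 115%. The pool labelled control saline replicate 2 was also nearer to the Fyn-null mean at 10 of 10 genes, at 87.1% to 103% with a median of 93.9%. It was thus on the Fyn-null side at each of the genes. These lie on 7 chromosomes, none of them chromosome 10, which carries Fyn. At Pyroxd2 and Cdh7 the other pools labelled control lay on that side too, so there the side does not tell the labels apart. Against the other saline pools alone, without Fyn-null replicate 4, this pool was nearer to the Fyn-null ones at 10 of 10 genes.

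The pool labelled Fyn-null saline replicate 4 was nearer to the control mean at 7 of 10 genes. It stood at -18% for Gdpd3, -10% for Krt12, -1.1% for Ccl27a, -6.8% for Pla2g4e, 7.3% for Tmem87a, 6.9% for Cdh7 and 46% for Pyroxd2. At the remaining genes it was nearer to the Fyn-null mean, with 57% at Cdhr1, 76% at Rpgrip1 and 91% at Ang. These are the 3 members on chromosome 14. The pool thus lay on the control side at most genes but not at those of chromosome 14. Control saline replicate 3 was also on the Fyn-null side at Rpgrip1 (70%) and Ang (72%). The side therefore does not tell the labels apart at Rpgrip1 and Ang. At Cdhr1 control replicates 1 and 3 stood at 15% and 24%, and Fyn-null replicates 2 and 3 at 98% and 82%. There the side does tell these labels apart, and replicate 4 lay on that of its label, though close to the midpoint. Against the other saline pools, without control replicate 2, the pool was nearer to the control ones at 7 of 10 genes, the same 7. At the 3 members on chromosome 14 it was nearer to the Fyn-null ones.

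Control saline replicates 1 and 3 were not at the control mean throughout. Replicate 1 was nearer to the control mean at 8 genes and replicate 3 at 5. Replicate 1 lay at 71% for Pyroxd2 and 73% for Cdh7, and replicate 3 at 70% for both Rpgrip1 and Pyroxd2, 72% for Ang, 63% for Cdh7 and 55% for Tmem87a. At Gdpd3, Cdhr1, Ccl27a and Pla2g4e both lay below 30%. Leaving out any 1 ethanol array, or normalising by quantiles again, left the counts of genes on each side unchanged for replicate 4 of the Fyn-null label and replicate 2 of the control label, the only saline pools for which this was run. Each pool holds 3 mice, and whether mice within a pool differed was not tested.

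**Figure D3:**
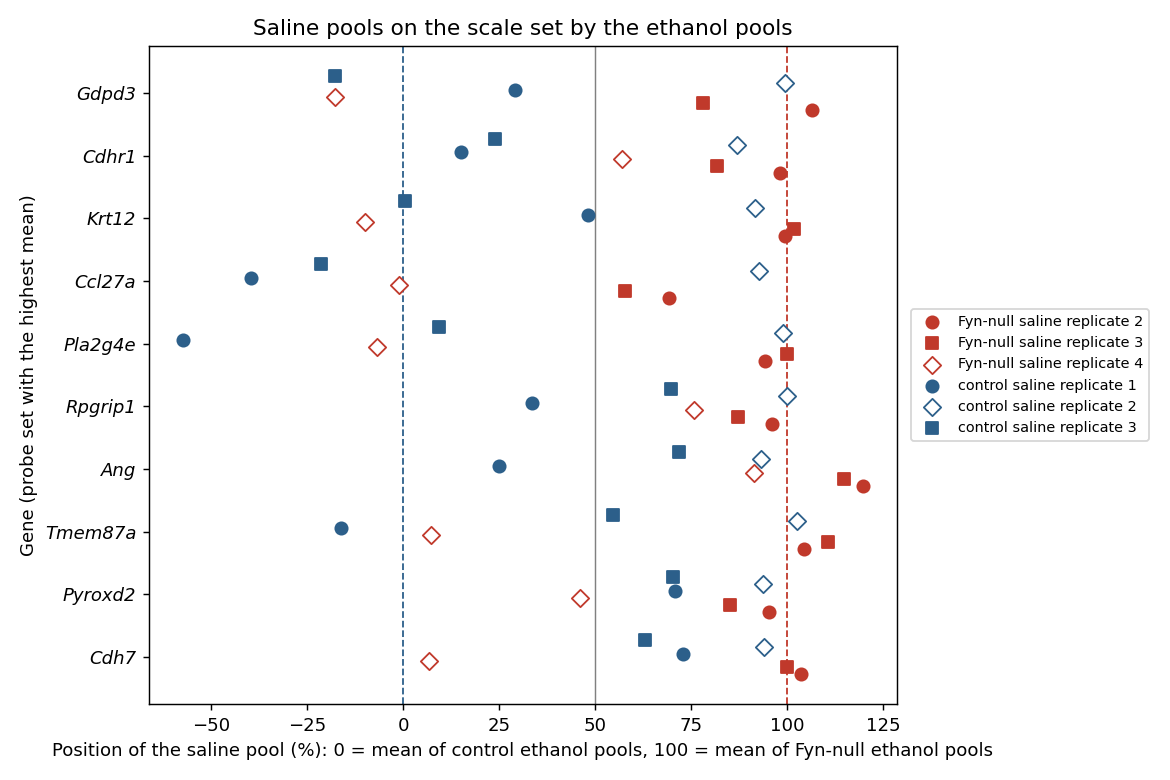
Position of the 6 saline pools (horizontal axis, percent of the way from the control ethanol mean at 0 to the Fyn-null ethanol mean at 100) for each gene (vertical axis). Red is labelled Fyn-null, blue is labelled control, and open diamonds are Fyn-null replicate 4 and control replicate 2. The blue diamond lies between 87.1% and 103% at every gene, and the red one lies left of the midpoint at 7 genes.

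Between the saline groups as labelled, no member passed the test. The groups overlapped at 10 of 10 genes (5.29% of all genes did not overlap), and 0 of 14 member probe sets passed an adjusted p of 0.05 in limma, with 0 of 24770 called in all (0%; 467 probe sets, 1.89%, had an unadjusted p under 0.05). Differences between Fyn-null and control ran from -0.82 (standard error 0.35) for Cdhr1 to 0.56 (standard error 0.19) for Ang, with an adjusted p of 0.9999 throughout. Gdpd3 was at -0.46 with a standard error of 0.74. Among the members, the median SD of 3 pools was 0.46 in Fyn-null saline and 0.66 in control saline, against 0.12 in Fyn-null ethanol and 0.29 in control ethanol.

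Without the pools labelled Fyn-null saline replicate 4 and control saline replicate 2, the remaining saline pools (replicates 2 and 3 against 1 and 3) did not overlap at any of the 10 genes, and each ran in the same direction as after ethanol. The differences were -2.16 for Gdpd3, -1.57 for Cdhr1, -1.56 for Krt12, -0.91 for Ccl27a and 0.92 for Pla2g4e, all 5 of which passed the test, against 7 of 12323 genes in all (0.0568%). Tmem87a at 0.99, Ang at 0.85, Rpgrip1 at 0.78, Cdh7 at 0.38 and Pyroxd2 at 0.22 did not pass. The pools were left out with these values known, so the separation and the calls follow in part from that choice. They are a description of the remaining pools. The spread in that fit also came from the ethanol pools the members were selected on. Fyn-null saline values lay below 5.15, the lowest mean the filter kept, at Gdpd3 (4.13 and 4.84) and in replicate 2 at Cdhr1 (4.94).

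The ethanol response of each stock was read from the same arrays, and the ethanol pools had taken part in the choice of the genes. In Fyn-null mice, 0 members were called (99 of 24770 probe sets, 0.4%), also without the 2 pools in doubt (54 probe sets, 0.218%), and 1 of 10 genes had groups that did not overlap (18.5% of all genes). That gene was Ccl27a, at 8.37 to 8.66 after ethanol and 8.82 to 9.51 after saline, with a difference of -0.56. The other differences lay between -1.11 for Gdpd3 and 0.33 for Cdh7.

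In control mice, 2 members had an adjusted p under 0.05 for ethanol against saline in limma, both lower after ethanol (355 of 24770 probe sets were called, 1.43%, and 0.925% were called lower). They were Pyroxd2, at -0.88 (standard error 0.14), and Rpgrip1, at -1.32 (standard error 0.29), with 3 of 3 ethanol pools below 3 of 3 saline pools for each. Low values in the control ethanol pools are part of what these genes were selected on, so the calls describe the same pools again and are not independent of the choice. Rpgrip1 lost the call in 9 of 12 fits that left out 1 array, and also without the 2 pools in doubt, where it was at -1.003 and Pyroxd2, at -0.79, still passed (0.593% of probe sets called). In a fit of the control groups alone neither passed (18 probe sets called, 0.0727%).

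Groups did not overlap between ethanol and saline in control mice at 5 of 10 genes, 4 lower and 1 higher (24.7% of all genes, 19.3% lower and 5.36% higher). Besides Rpgrip1 and Pyroxd2 these were Ang at -0.78, Cdh7 at -0.85 and Cdhr1 at 0.94. Several marker lists were also lower after ethanol in control mice without overlap. The mean of 5 endothelial markers was 6.58 to 6.85 after ethanol and 7.21 to 7.37 after saline, that of 5 microglial markers 7.24 to 7.35 and 7.43 to 7.68, and that of 5 inhibitory neuron markers 9.52 to 9.57 and 9.59 to 9.64. The inhibitory neuron markers had a median difference of -0.092, near the -0.060 over all genes. Of these, 4 were lower and 1 higher, and only 1 alone had groups that did not overlap. Sag was at 5.15 to 5.31 after ethanol and 5.38 to 5.51 after saline. In Fyn-null mice the endothelial mean was 6.83 to 7.00 after ethanol and 7.25 to 7.42 after saline. The mean of 5 striatal markers was lower without overlap too, at 7.60 to 7.73 after ethanol and 7.77 to 7.80 after saline. So was the 1 blood marker measured, at 6.02 to 6.26 and 6.41 to 6.65. Of the striatal markers, 4 were lower and 1 higher. Groups did not overlap at 3 of them, among which Ppp1r1b was higher, at 0.19. The part of these marker lists in the member differences was not tested.

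No member was called for a difference between the stocks in the ethanol response, which contains the contrast used for the choice, nor was any of the 24770 probe sets (0%; 1023 probe sets, 4.13%, had an unadjusted p under 0.05). After ethanol itself, 0 of 24770 probe sets were called between the stocks with all arrays in the fit (0%; 3380, 13.6%, had an unadjusted p under 0.05). That fit shares 1 estimate of the spread over the 4 groups. In a fit of the 2 ethanol groups alone 193 probe sets were called (0.779%), 11 of them members, and without the 2 pools in doubt 260 were (1.05%), 12 of them members. The members were selected on this contrast, so these counts follow from the choice.

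Most genes next to the members were not measured. Of 185 genes listed among the 10 on each side of a member, 53 were measured, and 15 of these (28.3%) had non-overlapping ethanol groups, against 20.9% of all genes. Their differences after ethanol lay between -0.63 and 0.54, and none was called between the stocks with all arrays. Pla2g4e and Tmem87a have 5 genes between them, while 48 genes separate Ang from Rpgrip1 and 327 separate Cdhr1 from Ang.

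Beside Rpgrip1, Supt16 (a subunit of the histone chaperone FACT) was at -0.57 and Chd8 (a chromatin remodeller) at 0.54 after ethanol, and both were called in the fit of the ethanol groups alone (2 of 53, 3.77%, against 0.519% of all genes). They are singled out from an alternative fit after their values were seen. Chd8 was 8.62, 8.35 and 8.49 in Fyn-null ethanol pools and 7.99, 7.99 and 7.86 in control ethanol pools. After saline it was 8.44, 8.50 and 8.70 under the Fyn-null label and 7.95, 8.61 and 8.41 under the control label, so at Chd8 the pool labelled Fyn-null replicate 4 lay with its label and control replicates 2 and 3 lay with Fyn-null. Rpgrip1, 3 genes away, placed these 3 pools on the same side.

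Among the neighbours, 2 responded to ethanol. Sult1a1, a phenol sulfotransferase near Gdpd3, was higher after ethanol by 0.66 in Fyn-null mice (adjusted p = 0.0319, limma) and by 0.72 in control mice (adjusted p = 0.0147, limma). Mettl3, the catalytic subunit of the RNA adenosine methyltransferase, near Rpgrip1, fell by 0.59 in control mice (adjusted p = 0.0171, limma), with -0.42 in Fyn-null mice (adjusted p = 0.105, limma). These count as 1 of 53 neighbours in Fyn-null mice (1.89%) and 2 of 53 in control mice (3.77%), against 0.511% and 1.45% of all genes. At both genes the ethanol groups of the stocks overlapped.

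**Figure D4:**
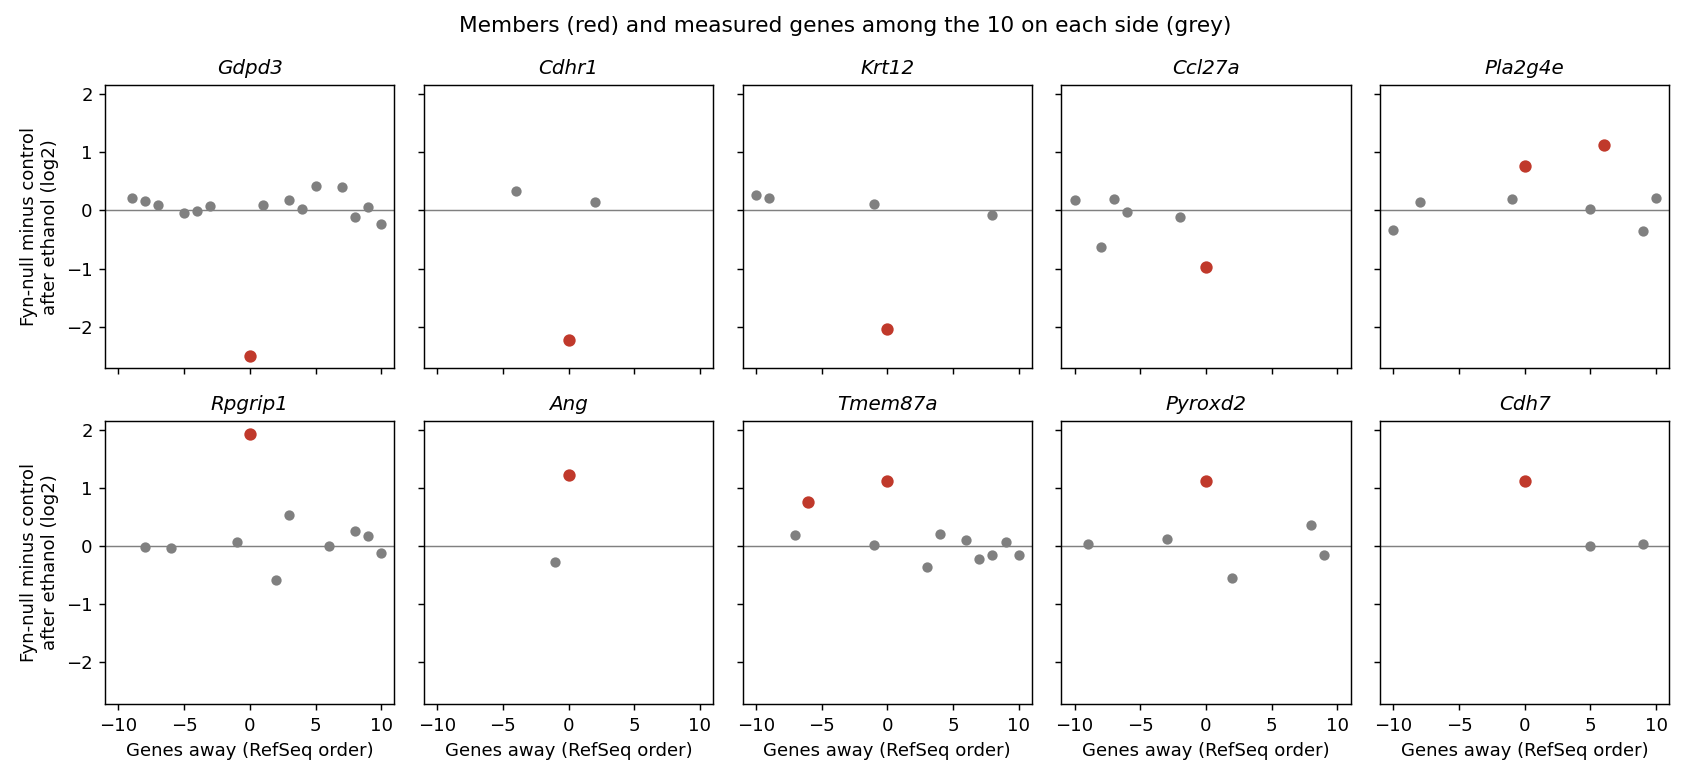
Difference between Fyn-null and control ethanol pools (vertical axis, log2) for each member (red, at 0) and the measured genes among the 10 on each side in RefSeq order (horizontal axis, genes away). Most neighbours lie near 0, and Pla2g4e and Tmem87a appear in each other's panel.

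No relative of the members in family or pathway was called. Of 93 genes listed, 41 were measured and 0 were called in any of the 4 group comparisons or the interaction. Between the stocks after ethanol, 26 lay higher and 15 lower, with a median of 0.08 against 0.04 over all genes, and 12 had non-overlapping groups (29.3%, against 20.9% of all genes). In the N-acylethanolamine pathway, to which Pla2g4e and Gdpd3 belong, 8 of 10 genes were measured, 7 lay higher and 5 did not overlap (62.5%, against 20.9% of all genes), with a median of 0.21 and 0 called. Napepld, the phospholipase that releases N-acylethanolamines, was at 0.33 (adjusted p = 0.189 in limma). Of the type II and related cadherins, 3 of 11 lay higher and 8 lower, and of 14 other keratins only 1 was measured. All 4 measured partners of Rpgrip1 and Cdhr1 in the photoreceptor cilium lay higher, with a median of 0.15.

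Markers of cell types that a dissection of PFC could hold were compared over the same pools. The mean of 4 cortical excitatory markers was 9.87 to 10.2 in Fyn-null and 10.2 to 10.4 in control ethanol pools, without overlap. That of 5 meningeal markers was 6.83 to 7.08 against 6.71 to 6.81. Singly, 4 meningeal markers lay higher and 1 lower, and 2 of the 5 had groups that did not overlap. Of the excitatory markers, Slc17a7 (-0.48) and Neurod6 (-0.45) had non-overlapping ethanol groups, while Tbr1 (-0.14) and Snap25 (-0.05) overlapped. The mean of the 2 olfactory bulb markers measured, of 5 listed, was higher after saline, at 6.07 to 6.22 in Fyn-null and 6.02 to 6.04 in control pools. Neither marker alone had non-overlapping saline groups, and the groups include the 2 pools in doubt. The means of the blood, striatal, choroid plexus, surface epithelium, oligodendrocyte, astrocyte, microglial, inhibitory neuron and endothelial markers overlapped between the stocks after either injection. Single markers did not all do so. After ethanol, groups did not overlap at 3 of 5 striatal, 2 of 5 astrocyte and 2 of 5 microglial markers (20.9% of all genes). Each other list of these had 1 such marker, and blood 0. The striatal ones ran both ways, with Drd1 at -0.29, Ppp1r1b at -0.16 and Penk at 0.30. After saline, 2 striatal markers and 1 astrocyte marker did not overlap (5.29% of all genes). The part of these shifts in the member genes was not tested.

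Genes that were not members were ranked by how closely they followed the 10 over the 12 arrays. The measure was Pearson's r to the mean standardised profile of the members, with each gene turned so that control ethanol was high, and it is a description over arrays that share groups. The most alike were Adat2 (r = 0.953), Mapre1 (0.944), Prdm2 (0.929), E230029C05Rik (0.929) and Lingo1 (0.925). Running the opposite way were Mrpl55 (-0.958), Cyp51 (-0.944), Nars (-0.942), Slc7a10 (-0.941) and Btrc (-0.941). They lie on 9 chromosomes, and none was among the 10 genes on each side of a member.

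Adat2, a subunit of a transfer RNA adenosine deaminase, lies on chromosome 10 as does Fyn. It was 5.47, 5.81 and 5.81 in Fyn-null ethanol pools, against 6.81, 7.04 and 7.12 in control ethanol pools. Its saline values were 5.90, 5.73 and 6.69 under the Fyn-null label and 6.91, 5.66 and 6.19 under the control label. Prdm2, a zinc finger protein with a methyltransferase domain, was 7.28, 6.62 and 6.75 in Fyn-null and 8.18, 8.62 and 8.20 in control ethanol pools, and 6.93, 6.30 and 7.99 against 7.74, 6.81 and 7.99 after saline. Mrpl55, a protein of the mitochondrial ribosome, was 7.98, 7.82 and 8.02 in Fyn-null and 7.33, 7.34 and 7.40 in control ethanol pools, and 7.78, 7.96 and 7.55 against 7.44, 7.83 and 7.63 after saline. These genes were ranked on a profile that includes the saline pools, so where those pools lie at them follows from the ranking.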

How the data were processed

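The authors deposited log2 values per probe set, for which the submitters' processing notes name affy and RMA (versions not given in the sources used here). Whether the batch step described for the arrays was applied to these values is not stated, and S-scores, which need probe-level intensities, were not computed. After removal of 64 control probe sets and of the dimmest 45% of the other 45037, 24770 remained, with means from 5.15. Platform annotation gave 34958 probe sets 1 symbol, 932 several and 9211 none. All 10 members matched RefSeq (GRCm38.p6) by gene ID.

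Group means were fitted to all 12 arrays with limma 3.58.1 (lmFit, eBayes) in R 4.3.3 with a call at an adjusted p (Benjamini-Hochberg, over all probe sets) under 0.05. Tables were made in Python 3.11.15 with pandas 2.3.3. The fit was tested on simulated data. Arrays are pools of mice, so p-values measure the spread between 3 pools a group, and the number of arrays limits the precision. Alternatives were other filters, a block for the replicate number, quantile normalization, trend and robust, fits of 2 groups, leaving out arrays and the mean of a gene's probe sets.

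Named genes were the members, called relatives and neighbours, the 5 genes most alike in each direction, and Fyn. Other named genes were singled out afterwards, as stated there, or mark the edge of the choice or a marker list. Members, lists and alternatives were chosen with earlier results of these data known. Of the replicate numbers, 3 of 13 pairs had a residual correlation over 0.1 (range -0.43 to 0.32), so they were not treated as pairs. Both ends of that range involve a pool in doubt, so these correlations cannot show whether the numbers pair the arrays.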

Additional observations from a re-analysis of the deposited data

How the results depend on the processing

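Control saline replicate 2 lay on the Fyn-null side at 10 genes and Fyn-null saline replicate 4 on the control side at 7 when any 1 ethanol array was left out and with quantile normalization. Probe sets called between Fyn-null and control after ethanol numbered 0 with all arrays, 1 with trend and robust, 193 with only the groups compared and 260 with both saline pools left out, of which 1, 11 and 12 were members, counts that follow from the choice of the members on this contrast. Leaving out 1 array gave 0 to 35, with 0 to 5 members, the most without control saline replicate 2. After saline they numbered 44 with both pools left out, 5 of them members, and 0 otherwise. Those pools were left out with the member values known. In Fyn-null mice 99 were called for ethanol, against 155 with quantile normalization, 54 with both pools left out and 33 to 145 with 1 array left out (fewest without Fyn-null ethanol replicate 3). In control mice 355 were called for ethanol, against 18 with only the groups compared, 147 with both pools left out and 76 to 410 with 1 array left out (fewest without control saline replicate 3). Members called there numbered 2, against 1 with no filter, a filter of 60%, quantile normalization, trend and robust, or both pools left out, 0 with only the groups compared and 1 to 3 with 1 array left out. Rpgrip1 was the member that lost its call in most of these. The cause of these changes was not tested.

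Replicate numbers were not treated as pairs in the main fit. With the number as a block, 26 probe sets were called for ethanol in Fyn-null mice and 36 in control mice, with 0 members. The block also turned small differences round, to 0.045 for Pyroxd2 and 0.15 for Cdh7 after saline, to 0.0024 for Ang for ethanol in Fyn-null mice and to 0.0050 for Pla2g4e for ethanol in control mice.

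Other reversals were of differences that passed no test. With both pools left out, Pyroxd2 was at 0.22 and Cdh7 at 0.38 after saline, Krt12 at 0.013, Tmem87a at -0.086 and Cdh7 at -0.020 for ethanol in Fyn-null mice, and Ccl27a at -0.30 and Pla2g4e at 0.18 for ethanol in control mice. With the mean of all probe sets, Pyroxd2 was at 0.030 after saline and Rpgrip1 at -0.055 for ethanol in Fyn-null mice. With 1 array left out, differences after saline ran from -1.38 to 0.22 for Gdpd3, -1.11 to 0.12 for Krt12, -0.050 to 0.68 for Tmem87a, -0.14 to 0.13 for Pyroxd2 and -0.26 to 0.28 for Cdh7. For ethanol they ran from -1.13 to 0.013 for Krt12, -0.086 to 0.50 for Tmem87a and -0.020 to 0.52 for Cdh7 in Fyn-null mice, and from -0.30 to 0.35 for Ccl27a and -0.41 to 0.18 for Pla2g4e in control mice.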
